A study of Mus musculus with 4 samples.

Results

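Cells remove superoxide and peroxides with a small set of enzymes. Transcripts of these enzymes were examined in spleens of mice without Nrf2 and of their wild-type littermates. The genes were catalase (Cat), the glutathione peroxidases Gpx1, Gpx3 and Gpx4, the peroxiredoxins Prdx1, Prdx2, Prdx4 and Prdx6, and the superoxide dismutases Sod1 and Sod2. Members were the probe sets whose only gene symbol in the platform annotation was one of these 10 genes. That gave 11 of the 12488 probe sets on the array, for 8 of the 10 genes, and 10 of the 11 were bright enough to test. The 8 genes are among 8251 with a probe set of 1 symbol. A further 2 probe sets were assigned both to Prdx1 and to Gm21399. They cannot be told apart by gene, are given separately and are not counted among the members. No probe set carried Prdx6 as its symbol, so that gene was not analysed here.

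The knockout group was 2 arrays of spleen RNA from female nrf2 -/- mice, and the control group was 2 arrays from female nrf2 +/+ mice, all aged 5 months. Both genotypes came from crosses between heterozygotes. The labels give the background of the wild-type founders as C57B6/SJL and that of the knockout founders as C57B6/129SVJ. Strain alleles linked to the deleted gene travel with it, and with 2 arrays per group strain alleles elsewhere in the genome may also differ by genotype, so neither can be told apart from the deletion. All animals received the same vitamin E and vitamin A containing diet, and the labels place the sampling age ahead of severe autoimmune disease. The labels name no tissue-restricted deletion. They leave unstated how many mice contributed to each array, so every p-value rests on array-to-array spread that may be no more than technical.

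As background, superoxide dismutases turn superoxide into hydrogen peroxide, which catalase, glutathione peroxidases and peroxiredoxins then reduce or split. Catalase works mainly in peroxisomes, while glutathione peroxidases draw electrons from glutathione and most peroxiredoxins from thioredoxin. Nrf2, a transcription factor encoded by Nfe2l2, binds antioxidant response elements together with small Maf proteins and raises many genes of this defence. The spleen clears aged red cells, and red cells carry large amounts of catalase, Gpx1, Prdx2 and Sod1 protein.

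Values are deposited intensities on a linear scale, and a difference is log2 of knockout minus log2 of wild type from limma, with values below an intensity of 185.5 raised to that floor. This scale understates differences of dim probe sets. Nfe2l2 itself had intensities of 202.0 and 178.6 in the knockout arrays and of 3537 and 6321 in the wild-type arrays (difference -4.61, SE 0.47, n = 2 per group, limma adjusted p = 0.0199). The 15 B cell and 13 T cell marker probe sets tested had no value below the floor on any array. Dim probe sets were left out of the test, so this was partly set by that choice. B cell markers measured lower in knockout spleen in 10 of 15 and higher in 5. T cell markers measured lower in 11 of 13 and higher in 2. Over all tested probe sets 46.3% measured lower. Knockout values lay entirely below wild-type values in 7 of the 15 and 5 of the 13, against 12.2% of all tested probe sets. They lay entirely above in 0 of either list, against 14.3%. In limma 0 of either list passed the threshold given below. Wild-type replicate 1 stood apart over all 7453 tested probe sets, with Pearson's r of 0.849 to 0.851 against the other 3 arrays. Correlations among those 3 lay between 0.938 and 0.947. For the Gapdh control, signal at the 3' end over signal at the 5' end, which reflects how intact the RNA was, came to 25.5 and 34.8 in the knockout arrays and to 88.3 and 8.07 in the wild-type arrays. The same ratio for beta-actin did not single out wild-type replicate 1, at 19.3 and 16.2 in spleens without Nrf2 and 14.4 and 8.86 in wild-type spleens. Both ratios were 8.07 or more on every array, so signal at the 3' end far exceeded that at the 5' end in the other 3 arrays too. Because wild-type replicate 1 stood apart, results for the members are given with and without it. The part of RNA quality in any of them was not tested.

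No transcript of the 8 genes with a tested member probe set differed detectably between knockout and wild-type spleen in these 4 arrays. The direction of 5 of the 10 member probe sets changed when wild-type replicate 1 was left out. None of the 10 tested member probe sets passed an adjusted p of 0.05 in limma, where 0.0537% of all tested probe sets did. None reached an unadjusted p of 0.05 either, against 1.74% of all tested probe sets. In none of the 10 did the knockout values lie entirely above or entirely below the wild-type values, while 26.4% of all tested probe sets showed such separate groups, 14.3% with knockout higher and 12.2% with knockout lower. Among the 10, the fitted difference was above 0 in 3 and below 0 in 7, against 53.7% above 0 and 46.3% below 0 over all tested probe sets. The median difference was -0.12 over the members and 0.04 over all tested probe sets. With 2 arrays per group, an exact permutation test of a single probe set cannot give a two-sided p below 0.333.

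**Figure D1:**
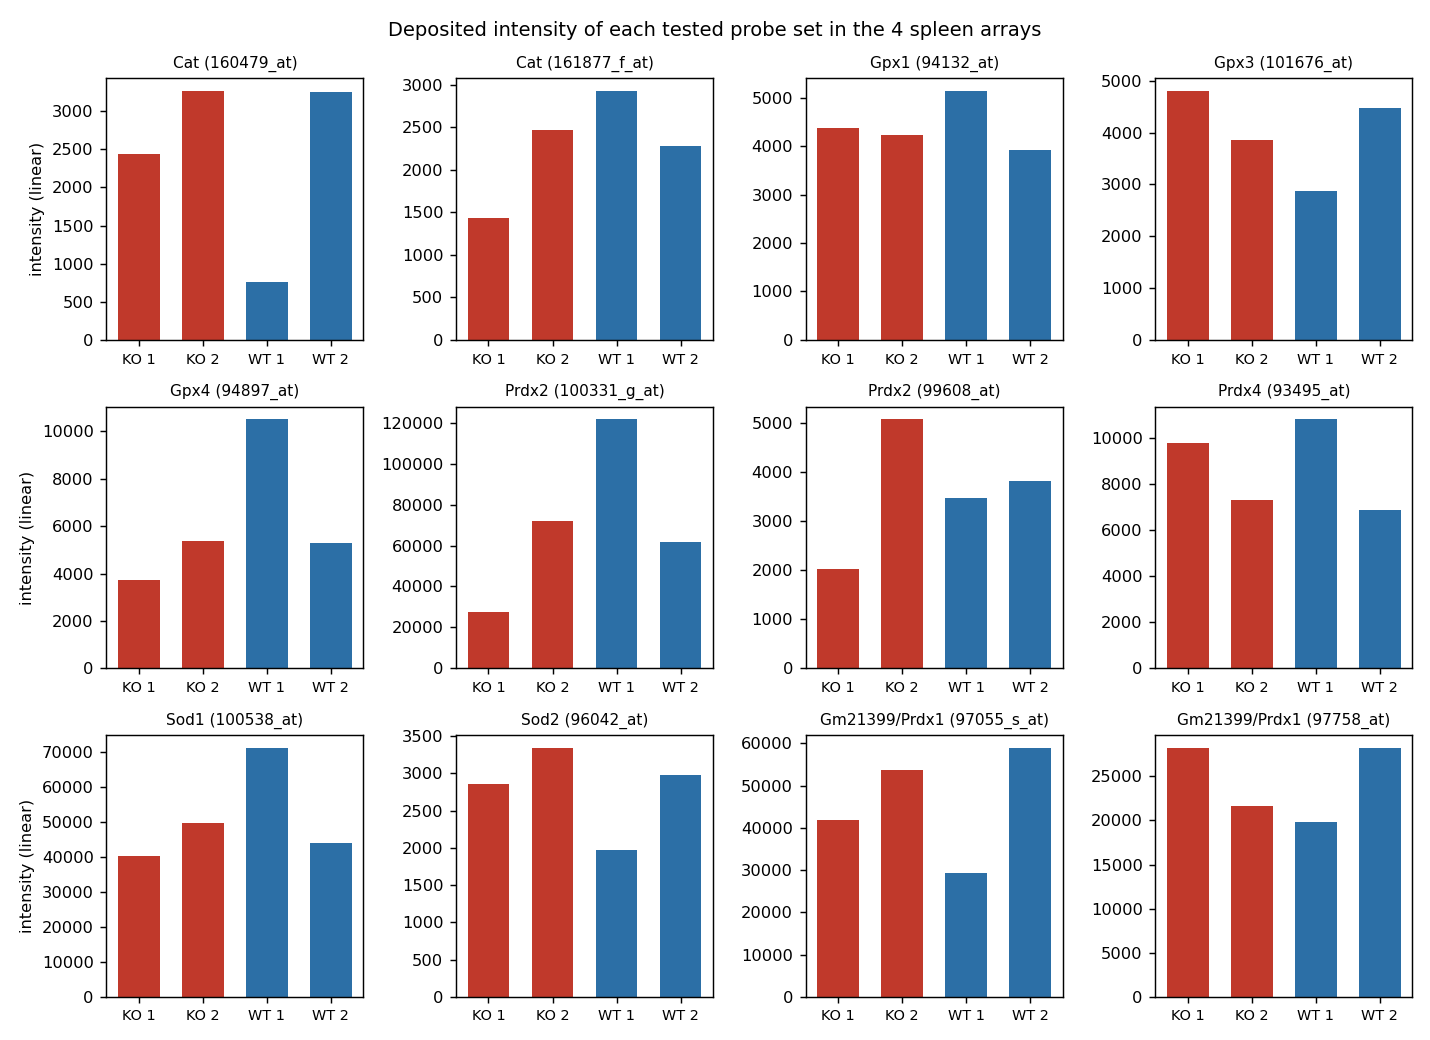
Deposited intensity, on a linear axis starting at 0, of the 10 tested member probe sets and the 2 probe sets shared by Prdx1 and Gm21399, with 1 bar per array (KO 1 and KO 2, knockout replicates in red; WT 1 and WT 2, wild-type replicates in blue). In all 12 panels the knockout and wild-type bars overlap in height.

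Promoter windows, from 250 bases before to 50 bases after a gene's start in the RefSeq annotation of GRCm38.p6, were available for 9 of the 10 genes and not for Prdx6. They were searched on both strands for TGACNNNGC, the core of the antioxidant response element, because the deleted factor binds this element. The core was found in windows of 2 of the 9 genes, Prdx1 and Sod1, and in 14.0% of all 27025 genes with a window. Both sequences are shown to place the core relative to the start. Each is the upstream stretch of the plus strand, 5′ to 3′, with the core in capitals, which here reads as the reverse complement because the match lies on the minus strand.
Prdx1: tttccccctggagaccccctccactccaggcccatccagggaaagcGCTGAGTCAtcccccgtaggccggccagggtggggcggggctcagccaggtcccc
Sod1: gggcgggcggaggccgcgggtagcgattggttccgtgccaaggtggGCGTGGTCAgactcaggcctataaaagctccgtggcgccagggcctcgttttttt
The Prdx1 stretch is chr4:116685420-116685520, with the core 133 to 125 bases before the start. The Sod1 stretch is chr16:90220660-90220760, with the core 56 to 48 bases before the start. A match is a description of letters, and binding at these places was not measured here.

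Among the superoxide dismutases, Sod1, the copper and zinc enzyme of the cytosol, measured 40348 and 49758 in the 2 knockout arrays, compared with 71203 and 44050 in the 2 wild-type arrays. Wild-type replicate 1 was high and the other 3 arrays lay close together, with wild-type replicate 2 between the knockout arrays. The difference was -0.32 (SE 0.46, 95% confidence interval -1.39 to 0.75, limma adjusted p = 0.992). Leaving out wild-type replicate 1 gave 0.02, and leaving out wild-type replicate 2 gave -0.67. Sod2, the manganese enzyme of mitochondria, which inflammatory signals induce, was at 2849 and 3341 in spleens without Nrf2 and at 1972 and 2976 in wild-type spleens. Here wild-type replicate 1 was the low array and wild-type replicate 2 again lay between the knockout arrays. The difference was 0.35 (SE 0.41, interval -0.60 to 1.30, limma adjusted p = 0.992), and it was 0.05 without wild-type replicate 1.

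Catalase was measured by 2 probe sets, which differed most in wild-type replicate 1. The probe set 160479_at had intensities of 2441 and 3266 in the knockout arrays and of 764.2 and 3256 in the wild-type arrays. Its wild-type replicate 1 value was far below the other 3. The difference was 0.84 (SE 0.66, interval -0.68 to 2.36, limma adjusted p = 0.992), and it was -0.21 without that array and 1.89 without wild-type replicate 2 (limma adjusted p = 0.0657, the smallest of any member in any fit). The other Cat probe set, 161877_f_at, whose name marks possible cross-hybridisation within a gene family, measured 1438 and 2470 in the 2 knockout arrays, compared with 2931 and 2280 in the 2 wild-type arrays. In it wild-type replicate 1 was the highest array and knockout replicate 1 the lowest. The difference was -0.46 (SE 0.44, interval -1.47 to 0.55, limma adjusted p = 0.992), and it was -0.28 without wild-type replicate 1. The 2 Cat differences lay 1.30 apart on the log2 scale. After each probe set was centred on its own mean, the 2 differed by -1.87 in wild-type replicate 1, against 0.47 to 0.83 in the other 3 arrays. Cat is the only member on chromosome 2, which also carries Nfe2l2.

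Gpx1, the main cytosolic glutathione peroxidase, was at 4383 and 4243 in spleens without Nrf2 and at 5146 and 3919 in wild-type spleens. The knockout values were nearly equal and fell between the wild-type values. The difference was -0.06 (SE 0.39, interval -0.97 to 0.85, limma adjusted p = 0.997), and knockout over wild type was bounded between 0.511-fold and 1.81-fold. Leaving out wild-type replicate 1 gave 0.14. Gpx1 was the only one of the 10 whose interval lay within a 2-fold change in either direction, and 8 of the 10 lay within a 4-fold change.

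Gpx3, the glutathione peroxidase secreted into plasma, had intensities of 4803 and 3853 in the knockout arrays and of 2878 and 4470 in the wild-type arrays. The order of arrays mixed the genotypes, with wild-type replicate 1 lowest. The difference was 0.26 (SE 0.42, interval -0.71 to 1.23, limma adjusted p = 0.992), and it was -0.06 without wild-type replicate 1.

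Gpx4, which reduces lipid hydroperoxides in membranes and protects cells from ferroptosis, measured 3739 and 5382 in the 2 knockout arrays, compared with 10506 and 5280 in the 2 wild-type arrays. Wild-type replicate 1 was about 1.99 times wild-type replicate 2, and wild-type replicate 2 lay just below the higher knockout array. The difference was -0.73 (SE 0.48, interval -1.83 to 0.37, limma adjusted p = 0.992). Leaving out wild-type replicate 1 gave -0.24, and leaving out wild-type replicate 2 gave -1.23 (limma adjusted p = 0.105), so its size depended on which wild-type array was used.

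Prdx2, a thioredoxin-dependent peroxidase that is among the most abundant proteins of red cells, was measured by 3 probe sets. The probe set 100331_g_at was at 27729 and 71881 in spleens without Nrf2 and at 121615 and 61954 in wild-type spleens. Its name carries a suffix that was treated here as marking possible cross-hybridisation. Knockout replicate 1 was lowest and wild-type replicate 1 highest, and the other 2 arrays lay close together across genotypes. The difference was -0.96 (SE 0.60, interval -2.35 to 0.43, limma adjusted p = 0.992), the largest in size among the members. It was -0.27 without knockout replicate 1, -1.65 without knockout replicate 2 and, of the wild-type arrays, -0.47 when replicate 1 and -1.45 when replicate 2 was left out. The probe set 99608_at had intensities of 2030 and 5079 in the knockout arrays and of 3480 and 3819 in the wild-type arrays. It too was lowest in knockout replicate 1, while its wild-type values were nearly equal. The difference was -0.18 (SE 0.51, interval -1.35 to 0.99, limma adjusted p = 0.992), and it turned to 0.48 without knockout replicate 1 and was -0.25 without wild-type replicate 1. The remaining Prdx2 probe set, 100330_at, measured 84.0 and 39.5 in the 2 knockout arrays, compared with 50.8 and 11.7 in the 2 wild-type arrays. All 4 values lay below the floor, so it was not tested and no fold is given.

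The 2 tested Prdx2 probe sets gave nearly the same ratio within the knockout group, with knockout replicate 2 at 2.59 and 2.50 times knockout replicate 1. Most erythroid marker genes were lowest in the same array. Of 19 tested erythroid probe sets, 17 were lowest in knockout replicate 1, and the median ratio of knockout replicate 2 to knockout replicate 1 was 5.17. Slc4a1, the red cell anion exchanger, was at 5106 and 30688 in spleens without Nrf2 and at 42541 and 26274 in wild-type spleens. Summed over the erythroid list the intensity was 197850 and 450306 in the knockout arrays and 552148 and 348497 in the wild-type arrays, and no value lay below the floor. That sum follows its brightest probe sets. Only 4 of the 19 were highest in wild-type replicate 1, and the median log2 value relative to each probe set's own mean was -1.46 and 0.93 in spleens without Nrf2 and 0.28 and 0.27 in wild-type spleens. The part of red cell precursors in the Prdx2 values was not tested, and in bulk spleen fewer cells of a type and less RNA per cell cannot be told apart. Within the wild-type group the 2 Prdx2 probe sets differed, with wild-type replicate 1 at 1.96 and 0.911 times wild-type replicate 2.

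**Figure D2:**
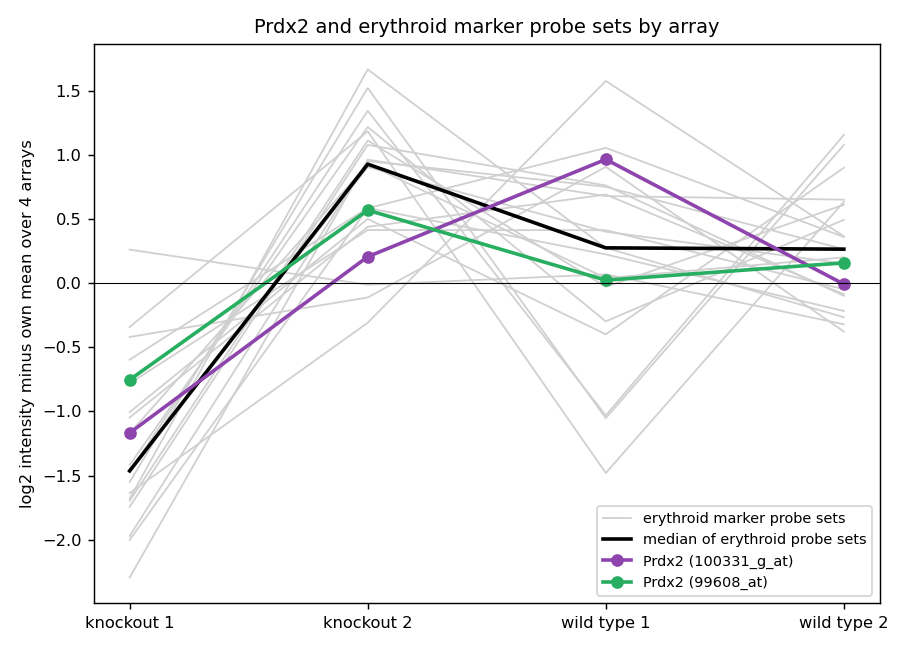
Log2 intensity minus the probe set's own mean over the 4 arrays (vertical axis) for the 19 tested erythroid marker probe sets (grey lines, median in black) and the 2 tested Prdx2 probe sets (coloured). Lines join the arrays only to guide the eye. Prdx2 and 17 of the 19 erythroid probe sets were lowest in knockout replicate 1, and the Prdx2 probe sets part from each other in wild-type replicate 1.

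The 3 probe sets most like 100331_g_at over the 4 arrays, among 6693 tested probe sets with 1 gene symbol outside the members, were those of Cyp4a12b, Dnajc11 and Nt5dc2. Their centred log2 values differed from those of Prdx2 by a root mean square of 0.050, 0.065 and 0.065. Cyp4a12b, of the cytochrome P450 fatty acid hydroxylases, had intensities of 283.8 and 802.1 in the knockout arrays and of 1286 and 684.7 in the wild-type arrays. Likeness over 4 arrays is a weak description. All 3 genes were lowest in knockout replicate 1 and highest in wild-type replicate 1, as 100331_g_at was. Because they were picked for this likeness, that order and their differences carry no further information. The difference of Cyp4a12b was -0.98 and those of Dnajc11 and Nt5dc2 were -0.86 and -0.84, each with a limma adjusted p of 0.992.

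Prdx4, the peroxiredoxin of the endoplasmic reticulum, measured 9786 and 7312 in the 2 knockout arrays, compared with 10794 and 6866 in the 2 wild-type arrays. The knockout values lay within the wild-type range. The difference was -0.03 (SE 0.44, interval -1.03 to 0.98, limma adjusted p = 0.997), and it was 0.30 without wild-type replicate 1.

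Prdx1, a cytosolic peroxiredoxin, could be read only through the 2 probe sets it shares with Gm21399. The probe set 97758_at was at 28244 and 21682 in spleens without Nrf2 and at 19788 and 28177 in wild-type spleens. The probe set 97055_s_at had intensities of 41814 and 53594 in the knockout arrays and of 29242 and 58940 in the wild-type arrays. Wild-type replicate 1 was the lowest array in both, and the genotypes overlapped in both. The differences were 0.07 (SE 0.44, interval -0.94 to 1.08) and 0.19 (SE 0.50, interval -0.96 to 1.34), with limma adjusted p of 0.997 and 0.992. Without wild-type replicate 1 they were -0.19 and -0.32. Neither Sod1 nor these shared Prdx1 probe sets, the genes with the response element core in their window, had a difference past the threshold. No member without the core passed it either, so this cannot show whether the core mattered.

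**Figure D3:**
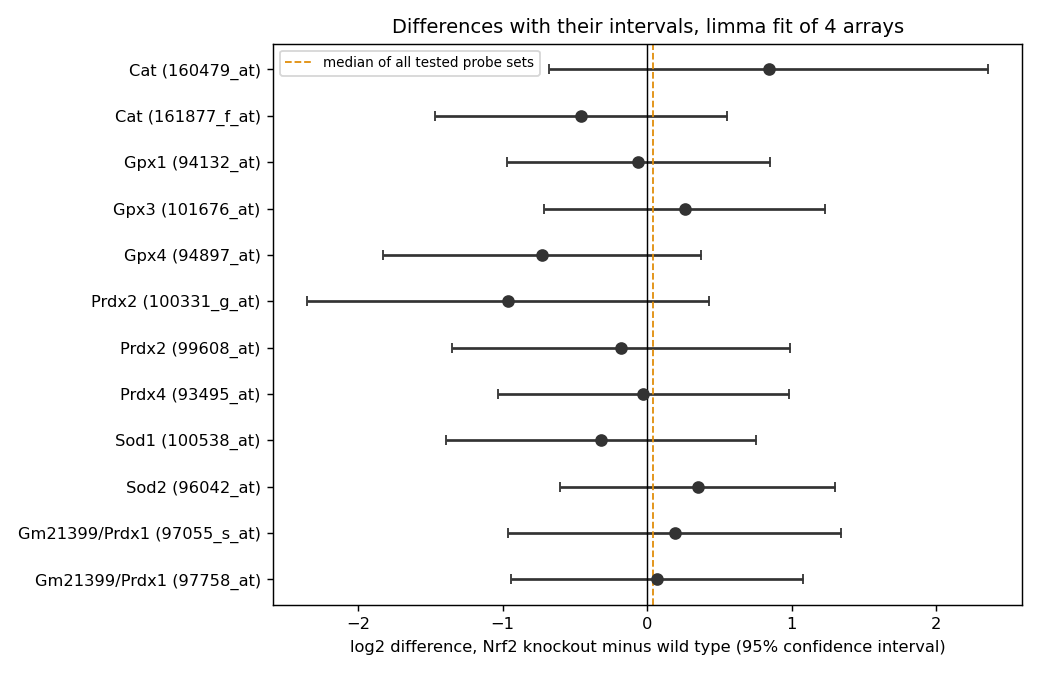
Log2 difference of knockout minus wild-type spleen (horizontal axis) with its 95% confidence interval from the limma fit of 4 arrays, for the 10 tested member probe sets and the 2 shared by Prdx1 and Gm21399. Every interval includes 0, and the dashed line marks the median of all tested probe sets at 0.04.

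The spread within the wild-type group exceeded that within the knockout group in 7 of the 10 member probe sets, near the 70.4% of all tested probe sets. The median gap between the members' replicates was 0.42 in knockout spleen and 0.64 in wild-type spleen on the log2 scale. In all 10 the difference between genotypes was smaller than the larger of that probe set's own gaps, as in 87.2% of all tested probe sets. For the members this followed from the overlap of their groups and is not a separate result. Wild-type replicate 1 held the highest value in 6 and the lowest in 3 of the 10. Over all tested probe sets it was highest in 37.3% and lowest in 39.2%. Knockout replicate 1 was lowest in 5 of the 10, against 18.7% of all tested probe sets.

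Among markers of other cells 0 probe sets of the exocrine pancreas and neutrophil lists passed the threshold in limma. An unadjusted p of 0.05 was reached by 7 of 11 and 6 of 16, against 1.74% of all tested probe sets. Exocrine pancreas markers measured lower in knockout spleen in 9 of 11 tested probe sets, were highest in wild-type replicate 1 in 9 of 11, and summed to 14879 and 18633 in the knockout arrays and 96403 and 27731 in wild-type replicates 1 and 2. Neutrophil markers measured higher in knockout spleen in 15 of 16 and were highest in wild-type replicate 1 in 4 of 16. They summed to 541950 and 601291 in the knockout arrays and 721764 and 183081 in wild-type replicates 1 and 2. Each sum follows its brightest probe sets. The neutrophil median log2 value relative to each probe set's own mean was 0.50 and 0.62 in the knockout arrays. It was 0.20 and -1.29 in wild-type replicates 1 and 2. T cell markers were highest in wild-type replicate 1 in 10 of 13 tested probe sets. Gpx4, Sod1 and the Prdx2 probe set 100331_g_at were highest in wild-type replicate 1, at 1.99, 1.62 and 1.96 times wild-type replicate 2. So were Cat 161877_f_at, Gpx1 and Prdx4, at 1.285, 1.31 and 1.57 times. Lowest in that array were Cat 160479_at, Gpx3 and Sod2, at 0.235, 0.644 and 0.663 times wild-type replicate 2. The part of other cells in these values was not tested.

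Against wild-type replicate 2 alone, the geometric mean of the knockout arrays ranged from 0.721-fold for Prdx2 100331_g_at to 1.23-fold for Prdx4. Against wild-type replicate 1 alone the range was wider, from 0.367-fold for the same Prdx2 probe set to 3.70-fold for Cat 160479_at. Without wild-type replicate 1 the median difference of the members was -0.13, with 4 measuring higher and 6 lower, and 0 passed the threshold in limma and 0 an unadjusted p of 0.05, against 0.0403% and 3.06% of all tested probe sets. Without wild-type replicate 2 the median was -0.30, 0 passed and 3 had an unadjusted p under 0.05, of which Cat 160479_at was higher and Gpx4 and Sod1 lower. In that fit 0.0671% of all tested probe sets passed and 29.4% had an unadjusted p under 0.05, so the members' 3 of 10 lay near the background.

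**Figure D4:**
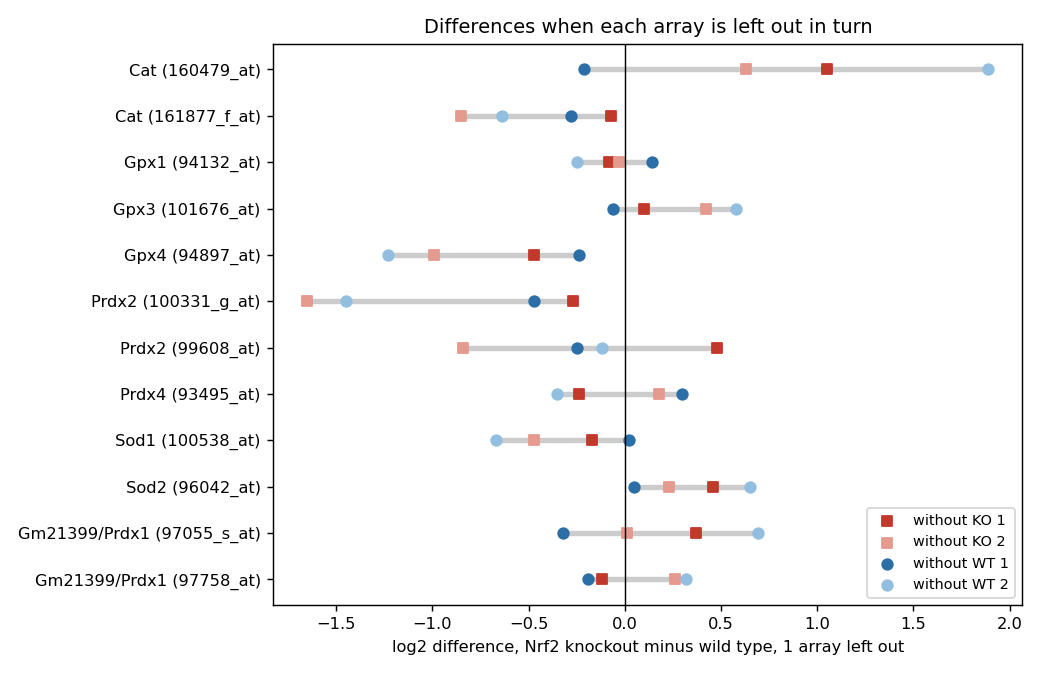
Log2 difference of knockout minus wild-type spleen (horizontal axis) when each array in turn was left out, for the 10 tested member probe sets and the 2 shared by Prdx1 and Gm21399 (squares, a knockout array left out; circles, a wild-type array left out; grey bar, range). The direction changed with the array left out in 6 of the 10 members.

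The other enzymes of the same chemistry showed no called difference. Of 5 tested probe sets for other peroxidases, dismutases and the Sod1 copper chaperone, 2 measured higher and 3 lower, with a median of -0.03 and 0 passing in limma (0 at an unadjusted p of 0.05). Prdx3, the mitochondrial peroxiredoxin, measured 4036 and 7967 in the 2 knockout arrays, compared with 4431 and 7528 in the 2 wild-type arrays, so each genotype held 1 low and 1 high array. Its difference was -0.03. Sod3, the extracellular superoxide dismutase, gave 0.19, and Gpx2, known mainly from the gut epithelium, gave -0.16. The copper chaperone gene Ccs gave 0.10 on 161506_r_at and -0.19 on 162382_f_at. Gpx7, a peroxidase of the endoplasmic reticulum, was too dim to test, with 56.7 and 178.6 in spleens without Nrf2 and 251.8 and 99.0 in wild-type spleens.

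The genes that supply electrons to these enzymes were also without a call. In the glutathione and thioredoxin list 5 of 15 probe sets measured higher and 10 lower, with a median of -0.04 and 0 passing in limma (0 at an unadjusted p of 0.05). Gsr, glutathione reductase, was at 2570 and 2180 in spleens without Nrf2 and at 2472 and 2308 in wild-type spleens (difference -0.01, SE 0.38). Txn1, cytosolic thioredoxin, had intensities of 50819 and 59054 in the knockout arrays and of 50255 and 53059 in the wild-type arrays (difference 0.09, SE 0.43). Both genes were nearly level across the 4 arrays, wild-type replicate 1 included. The thioredoxin reductase genes spread more, with differences of 0.46 for Txnrd1 of the cytosol, -0.95 for Txnrd2 of mitochondria and -0.83 for Txnrd3, which without wild-type replicate 1 were -0.05, -0.56 and -0.13. Txnrd2 measured 690.5 and 1594 in the 2 knockout arrays, compared with 2651 and 1550 in the 2 wild-type arrays, the same array order as Prdx2 100331_g_at. Srxn1, sulfiredoxin, which repairs over-oxidised peroxiredoxins, gave -0.23 on its tested probe set.

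Among 6 probe sets for NADPH supply, 5 measured higher, with a median of 0.24 and 0 passing in limma (0 at an unadjusted p of 0.05). Nnt, the mitochondrial transhydrogenase that makes NADPH, was at 1232 and 1272 in spleens without Nrf2 and at 61.1 and 1110 in wild-type spleens. Only wild-type replicate 1 was low, below the floor. The difference was 1.46 (SE 0.79, limma adjusted p = 0.992) and it was 0.17 without that array and 2.11 with a pseudocount of 16 in place of the floor. Idh1, the cytosolic isocitrate dehydrogenase, had intensities of 3411 and 3016 in the knockout arrays and of 925.2 and 4647 in the wild-type arrays, again with a low wild-type replicate 1, and its difference of 0.63 turned to -0.53 without that array.

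Glutathione peroxidases of this family are selenoproteins, and 6 probe sets for selenoprotein synthesis and other selenoproteins were tested. Of these 5 measured higher, with a median of 0.12 and 0 passing in limma (0 at an unadjusted p of 0.05). Selenof, a selenoprotein of the endoplasmic reticulum, gave 0.56 on 160360_at and 0.01 on 96249_at.

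Catalase shares its organelle with the peroxisomal genes, of which 8 of 16 tested probe sets measured higher and 8 lower, with a median of -0.03. In limma 0 passed the threshold and 1 had an unadjusted p under 0.05. That was Crat, carnitine acetyltransferase, on 161989_f_at, which measured 209.0 and 848.8 in the 2 knockout arrays, compared with 2837 and 829.0 in the 2 wild-type arrays (difference -1.86, SE 0.81, limma adjusted p = 0.992). Knockout replicate 2 and wild-type replicate 2 were nearly equal there, and the other Crat probe set gave -0.61. Without wild-type replicate 1 they gave -0.98 and -0.16. Abcd3, a peroxisomal membrane transporter, was higher on both knockout arrays, at 2932 and 3602 in the knockout arrays and 1592 and 2470 in the wild-type arrays (difference 0.71, SE 0.42, limma adjusted p = 0.992). Without wild-type replicate 1 the difference was 0.40. Groups were separate in 5 of the 16, 2 higher and 3 lower, against 26.4% of all tested probe sets, 14.3% higher and 12.2% lower. The lower ones included Pex14 on 100028_r_at (difference -1.0, SE 0.55, limma adjusted p = 0.992), while the genotypes overlapped on its other tested probe sets.

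Of 19 probe sets for other Nrf2 targets, 7 measured higher and 12 lower, with a median of -0.07 and 0 passing in limma (2 at an unadjusted p of 0.05). Mgst1, a microsomal glutathione transferase that can also reduce lipid hydroperoxides, gave 1.94 (SE 0.39, limma adjusted p = 0.543), with separate groups. Gstm2, a cytosolic glutathione transferase, gave -1.29 on 93009_at (SE 0.54, limma adjusted p = 0.992), also with separate groups, while the genotypes overlapped on its other tested probe set. Groups were separate in 7 of the 19, 2 higher and 5 lower, against 26.4% of all tested probe sets, 14.3% higher and 12.2% lower. The size of the Mgst1 difference exceeded that of every member's difference.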

How the data were processed

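Spleen total RNA was measured on 4 1-colour expression arrays. The deposited values are linear intensities, 1 per probe set and array. For the authors' software and scaling, the sources used here give nothing. The 2% trimmed means lay between 2501.5 and 2502.0, so intensities were used without further scaling. The number of arrays limits the precision.

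Leaving out 66 control probe sets left 12422. Values below the pooled 25th percentile (185.5) were raised to it, log2 was taken, and the test took the 7453 probe sets whose mean log2 value exceeded the 40th percentile. Symbols came from the platform annotation. A single symbol was given for 10833 probe sets, more than one for 396 and no symbol for 1193. By gene identifier, 10817 of the first kind matched the reference table. The genotypes were compared in R 4.3.3 with limma 3.58.1 (lmFit, then eBayes with an intensity trend). Tests were two-sided and p-values adjusted by Benjamini-Hochberg across the 7453. Every member probe set is named. Of each other list, genes came from the up to 4 with the smallest p, plus 8 set names where measured, and the 3 closest profiles to the member with the smallest p. The members and lists were chosen with earlier results of these data known.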

Additional observations from a re-analysis of the deposited data

How the results depend on the processing

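The 60 member differences from the 6 settings that kept all arrays (quantile scaling, median centring, a pseudocount of 16, no filter, no trend, replicate block) had the direction of the reported fit, and none passed. With 1 array left out, where a lone array is assumed to vary like the others, 0 members passed, and the range crossed 0 for Cat 160479_at (-0.21 to 1.89), Gpx1 (-0.25 to 0.14), Gpx3 (-0.06 to 0.58), Prdx2 99608_at (-0.84 to 0.48), Prdx4 (-0.35 to 0.30) and Sod1 (-0.67 to 0.02). It crossed 0 for the Prdx1/Gm21399 probe sets 97055_s_at (-0.32 to 0.69) and 97758_at (-0.19 to 0.32). Alternatives for these 2 and for genes outside the members were added after seeing the data. There the range crossed 0 for Prdx3 (-0.52 to 0.46), Sod3 (-0.09 to 0.46), Gpx2 (-0.41 to 0.09), Ccs 161506_r_at (-0.06 to 0.25) and 162382_f_at (-0.96 to 0.57), Txn1 (-0.02 to 0.19), Txnrd1 (-0.05 to 0.96), Gsr (-0.13 to 0.11), Srxn1 (-0.55 to 0.08), Idh1 (-0.53 to 1.79) and Selenof 160360_at (-0.06 to 1.18) and 96249_at (-1.12 to 1.14). Selenof 96249_at turned to -0.04 with quantile scaling and -0.05 with median centring, and the cause was not tested.

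Nfe2l2 kept its direction but not its call without the filter (-4.61, limma adjusted p = 0.713) and ranged from -5.03 to -4.19 with 1 array left out, with adjusted p of 0.143 and 0.0583 without wild-type replicates 1 and 2. The 4 calls over all probe sets became 0 without the filter and 36 with the replicate number as a block, and ranged from 3 to 13 with 1 array left out, with 10 and 13 without knockout replicates 1 and 2. With the block Mgst1 passed (limma adjusted p = 0.0271), but same-numbered arrays deviated together with a correlation of only 0.039 and the labels do not pair them. The member median, -0.12 in the reported fit, was -0.14 with quantile scaling and -0.18 with median centring, and ranged from -0.30 to -0.07 with 1 array left out; the value of -0.30, without wild-type replicate 2, was the only one to move by at least the 0.18 spread of that median between replicates. It was -0.04 without cross-hybridising probe sets and -0.04 with the brightest probe set of each gene.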
